A study of Homo sapiens with 5 samples.

Results

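The T-box genes encode transcription factors that share a DNA-binding T domain. The 10 genes described here are TBX1, TBX2, TBX3, TBX4, TBX5, TBX15, TBX18, TBX20, TBX21 and TBXT, taken by name from the 19974 protein-coding gene records of RefSeq (GRCh38.p14). Each gene was scored over its record with 2 kb either side. The data are ChIP-seq interval lists from HT1376, an established human bladder carcinoma cell line, grown with 250 nM CPI-0209, an inhibitor of EZH2, or with the vehicle DMSO for 8 days. The groups were H3K27me3 in CPI-0209 cells, H3K27me3 in DMSO cells, EZH2 in CPI-0209 cells and EZH2 in DMSO cells, each with 1 library. There was therefore no replicate check and no test between conditions was possible. Each list gives the start and end of called intervals in hg38 with no score or read count. The depth of the libraries is therefore unknown, and a position is either called or not called. In such bulk data, loss of a mark from some of the cells and a lower level in every cell cannot be told apart.

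EZH2 is the methyltransferase of PRC2, a Polycomb complex that trimethylates lysine 27 of histone H3. The product, H3K27me3, marks repressed chromatin, and PRC2 tends to bind CG-rich starts of developmental regulators that a cell type does not use. T-box genes are classic examples of such regulators: they pattern the early mesoderm, heart, limbs and pharynx, and TBX21 acts in T lymphocytes. CPI-0209 blocks the catalytic step, so the mark and the protein are separate readouts. The members fall into subfamilies by sequence. TBX2, TBX3, TBX4 and TBX5 form one, TBX1, TBX15, TBX18 and TBX20 another, TBXT pairs with TBX19, and TBX21 with EOMES and TBR1.

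Over the genome, H3K27me3 intervals covered 113.8 Mb in CPI-0209 and 315.1 Mb in DMSO, and EZH2 intervals 226.3 Mb in CPI-0209 and 193.4 Mb in DMSO. Of the DMSO length, 35.8% was called again in CPI-0209 for H3K27me3 and 78.2% for EZH2. Every value at a single gene stands against these library-wide differences.

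Of the 10 genes, 9 carried H3K27me3 over their window in CPI-0209 cells and the same 9 in DMSO cells, and these 9 also carried EZH2 in both. Over all protein-coding genes, H3K27me3 was present over 24.5% of windows in CPI-0209 and 34.2% in DMSO, and EZH2 over 75.1% in CPI-0209 and 58.8% in DMSO. The remaining member, TBX18, had no interval in any of the 4 lists. None of the 9 was without an H3K27me3 call in CPI-0209, whereas 29.8% of the protein-coding genes with H3K27me3 in DMSO were. The difference at the members was one of extent: coverage was lower in CPI-0209 at 8 of 9 (92.9% over all genes with the mark), higher at 0 (2.37%) and equal at TBX2. H3K27me3 covered over 90% of the window at 2 members in CPI-0209 (2.53% of all genes) and at 4 in DMSO (8.4%). EZH2 did so at 3 members in CPI-0209 (9.24%) and at 1 in DMSO (7.64%). Summed over the 10 windows, 108.7 kb lay under H3K27me3 in CPI-0209 and 164.3 kb in DMSO. EZH2 covered 150.4 kb in CPI-0209 and 131.6 kb in DMSO. Of the DMSO H3K27me3 length, 66.2% was called again in CPI-0209, against 42.5% summed over all protein-coding windows. For EZH2 this share was 95.4% at the members and 79.7% over all windows, and no member was without EZH2 in CPI-0209 that had it in DMSO (4.2% over all genes). The median ratio of coverage, CPI-0209 over DMSO, was 0.57 over the 9 members and 0.33 over the 6828 protein-coding genes with DMSO H3K27me3. Among genes with the mark in both conditions, the median of the widest domain in DMSO was 39.6 kb at the members and 23.4 kb over all protein-coding genes, and whether width has a part in the recall was not tested.

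**Figure D1:**
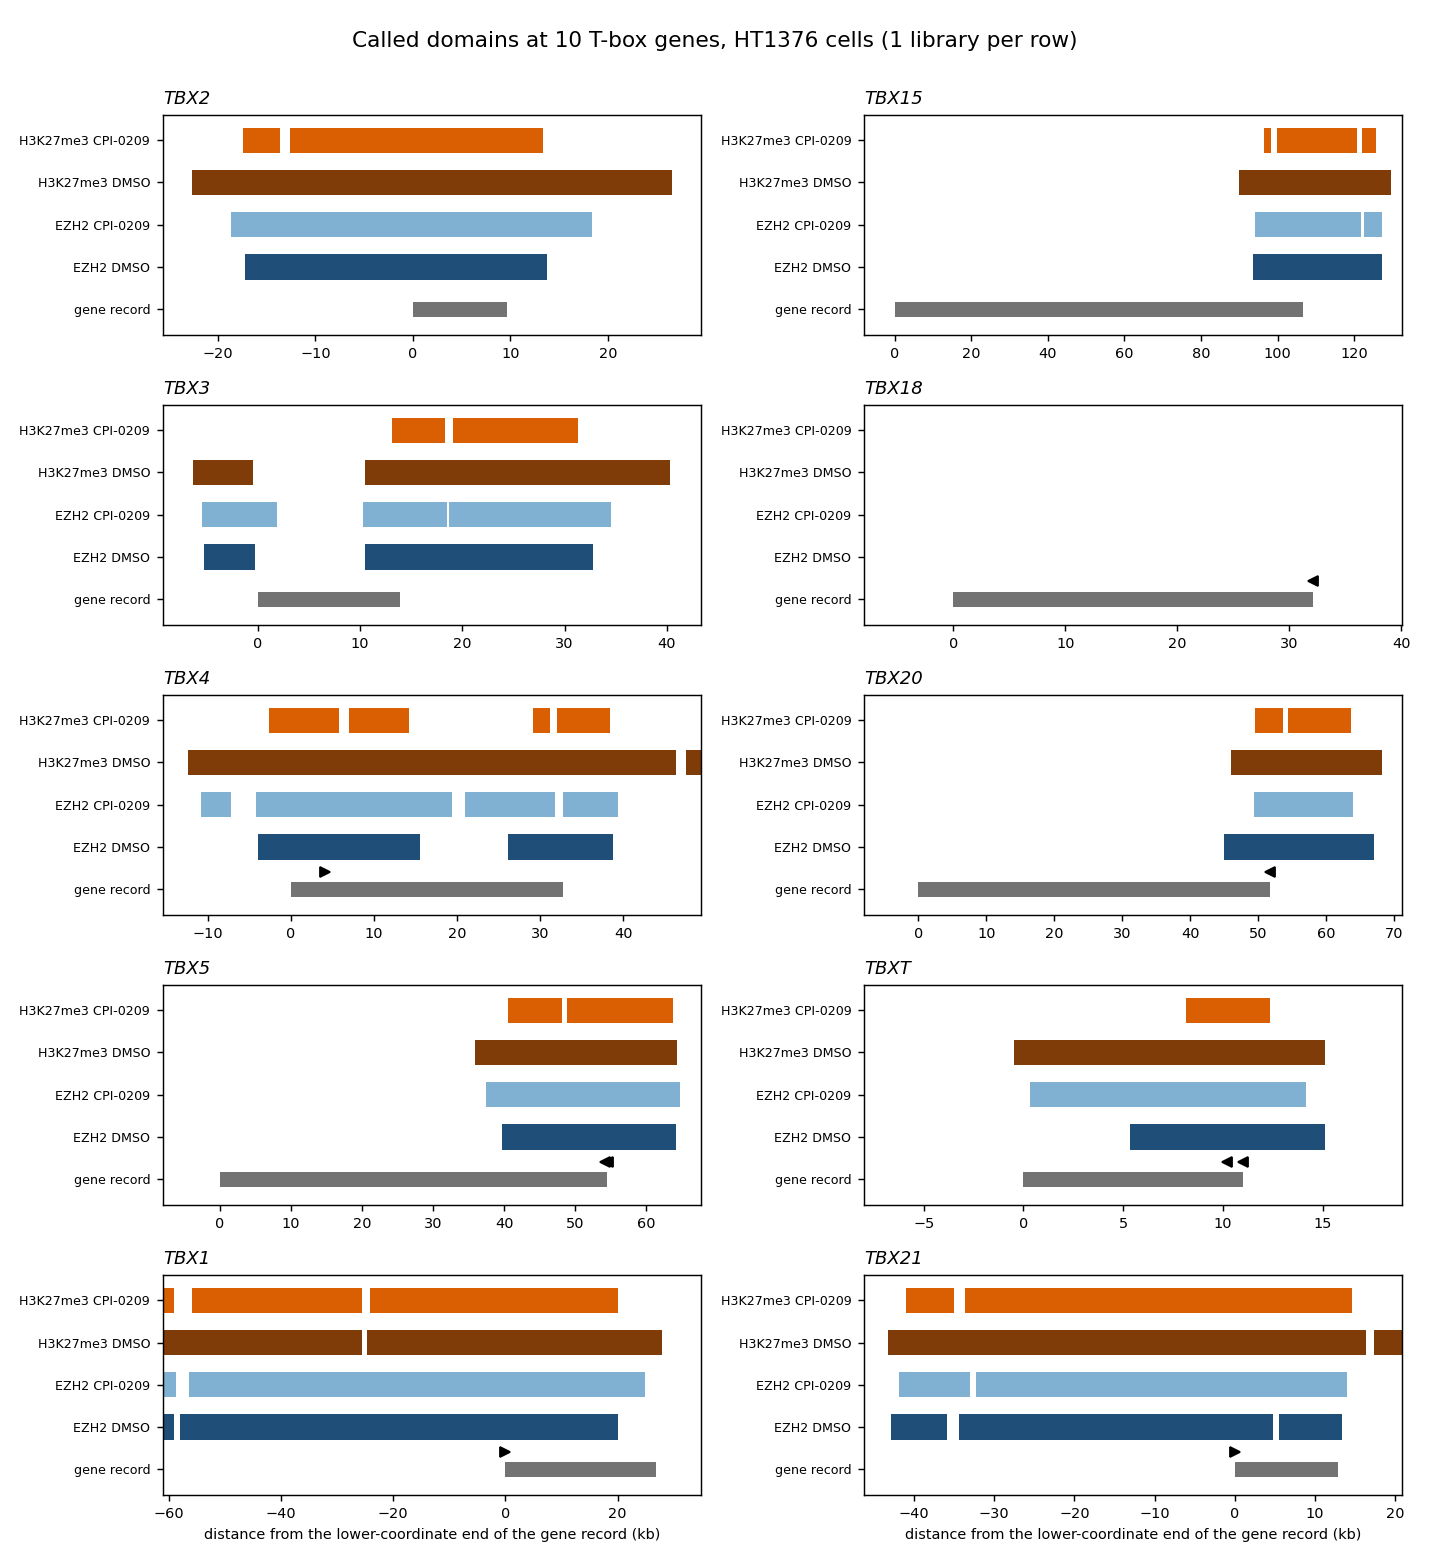
Called domains at the 10 T-box genes. The horizontal axis is the distance in kb from the lower-coordinate end of each gene record (grey bar), and each coloured row is 1 library, H3K27me3 in CPI-0209 and DMSO above EZH2 in CPI-0209 and DMSO; black triangles mark starts in the RefSeq promoter table and point in the direction of transcription. Intervals sit over 9 of the genes in every library, and the TBX18 panel is empty.

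TBX2, TBX3, TBX4 and TBX5 lie as neighbouring pairs on chromosomes 17 and 12. TBX2 (chromosome 17, 61399843 to 61409466) encodes a repressor active in heart, lung and limb development. H3K27me3 covered 100% of its window in CPI-0209 and 100% in DMSO, and EZH2 likewise covered 100% in both. The gene lay inside a domain in both conditions, and the domain around it differed in width. The H3K27me3 domain measured 26.0 kb in CPI-0209 (61387201 to 61413200), against 49.2 kb in DMSO (61377201 to 61426400), and the EZH2 domain 37.0 kb in CPI-0209 and 31.0 kb in DMSO. TBX4 (61452422 to 61485110), needed for hindlimb and lung growth, begins 43.0 kb beyond TBX2. H3K27me3 covered 53.7% of its window in CPI-0209, against 100% in DMSO, while EZH2 covered 92.9% in CPI-0209 and 71.1% in DMSO. A DMSO domain of 58.8 kb over the whole gene was called in CPI-0209 as 4 pieces, the widest of 8.40 kb, together 40.8% of its length, and the middle of the gene lay between them. Between the 2 genes, H3K27me3 covered 14.8% in CPI-0209 and 68.3% in DMSO, and EZH2 38.5% in CPI-0209 and 19.0% in DMSO.

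TBX5 (chromosome 12, 114353911 to 114408442) directs forelimb and heart formation and is mutated in Holt-Oram syndrome. The mark sat at the higher-coordinate end, which holds both of its starts in the table. H3K27me3 covered 26.0% of the window in CPI-0209 and 35.3% in DMSO, and EZH2 covered 32.5% in CPI-0209 and 28.8% in DMSO. The DMSO domain of 28.4 kb (114389801 to 114418200) was called in CPI-0209 as pieces of 7.60 and 14.8 kb with a gap of 0.8 kb between them, 78.9% of its length in all. TBX3 (114670255 to 114684175), mutated in ulnar-mammary syndrome, lies 261.8 kb beyond TBX5. Its window had 15.5% H3K27me3 coverage in CPI-0209 and 38.6% in DMSO, a ratio of 0.40, and 53.1% EZH2 coverage in CPI-0209 and 39.7% in DMSO. A DMSO domain of 5.80 kb at its lower-coordinate end had no H3K27me3 call in CPI-0209. EZH2 still covered 86.2% of that stretch in CPI-0209, against 82.8% in DMSO. The other DMSO domain, of 29.8 kb at the higher-coordinate end, was called again over 58.4% of its length, and it also overlaps the non-coding TBX3-AS1 record.

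In the subfamily of TBX1, TBX15, TBX18 and TBX20, the members differed from each other. TBX1 (chromosome 22, 19756703 to 19783593), a regulator of the pharyngeal arches deleted in DiGeorge syndrome, had 71.5% H3K27me3 coverage in CPI-0209 and 96.8% in DMSO. Its EZH2 coverage was 87.1% in CPI-0209 and 71.5% in DMSO. The H3K27me3 domain ended at 19776800 in CPI-0209 and at 19784600 in DMSO, and the DMSO EZH2 domain also ended at 19776800. Of the 28 CPI-0209 H3K27me3 edges at all members, 6 lay within 1 kb of a DMSO EZH2 edge (21.4%), against 27.1% over all protein-coding genes. TBX15 (chromosome 1, 118883047 to 118989510), a regulator of skeletal development, and TBX20 (chromosome 7, 35202430 to 35254100), a cardiac factor, are long records marked at the higher-coordinate end. TBX15 had 9.5% H3K27me3 coverage in CPI-0209 and 16.8% in DMSO, with EZH2 at 13.0% in CPI-0209 and 13.5% in DMSO. TBX20 had 7.2% in CPI-0209 and 13.8% in DMSO, and it had the lowest ratio of EZH2 coverage, with 7.7% in CPI-0209 and 15.6% in DMSO. It was the 1 of 9 members at or under 50% of DMSO EZH2 coverage (16.4% over all genes). With 10 kb either side in place of 2 kb, the ratio at TBX20 was 0.74 and 0 of 9 members stood there (16.4% of genes likewise). Only 49.4% of the DMSO EZH2 length in the TBX20 window was called again, against 96.0% or more at the other 8 members with EZH2. Beyond the window the EZH2 domain at TBX20 measured 14.6 kb in CPI-0209 and 22.0 kb in DMSO.

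TBXT (chromosome 6, 166157656 to 166168655), which encodes brachyury, the factor of early mesoderm and notochord, had the largest difference in H3K27me3 coverage of the 10. Coverage was 28.0% in CPI-0209 and 89.7% in DMSO, a difference of −61.7 percentage points and a ratio of 0.31. EZH2 differed in the other direction, with 84.4% in CPI-0209 and 51.0% in DMSO. The H3K27me3 domain measured 4.20 kb in CPI-0209 (166165801 to 166170000), against 15.6 kb in DMSO (166157201 to 166172800), and the nearest other CPI-0209 interval lay 64.2 kb away. TBX21 (chromosome 17, 47733236 to 47746122) encodes T-bet, the factor of type 1 helper T cells. It had 98.1% H3K27me3 coverage in CPI-0209 and 100% in DMSO, and 94.5% EZH2 coverage in CPI-0209 and 86.2% in DMSO. Its domain ran over the neighbouring TBKBP1 gene and measured 48.2 kb in CPI-0209 and 59.6 kb in DMSO.

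Ordered by the ratio of H3K27me3 coverage in CPI-0209 over DMSO, the members ran from TBXT (0.31) and TBX3 (0.40) through TBX20 (0.52), TBX4 (0.54) and TBX15 (0.57) to TBX1 and TBX5 (0.74 each), TBX21 (0.98) and TBX2 (1.00). Only TBXT and TBX3 stood at or under 50% of their DMSO coverage, 2 of 9 members, against 62.1% of all protein-coding genes with the mark. This count moved with the reading. Over the gene record alone, without the flanks, it was 4 of 9 (TBXT, TBX3, TBX20 and TBX4), against 59.9%. With the DMSO list shortened to the covered length of the CPI-0209 list by keeping its widest intervals, it was 0 of the 5 members still marked in DMSO, against 27%. Counting length under 2 overlapping intervals only, it was 8 of 9, against 95%. Calls fall on a grid of 200 bp and there is no measure of spread, so the order of neighbours such as TBX20, TBX4 and TBX15 carries no weight. The ratios of EZH2 coverage were above 1 at 6 of 9 members (38.8% over all genes with EZH2), from 1.10 at TBX21 to 1.65 at TBXT. They were below 1 at 2 members (52.0% over all genes), 0.96 at TBX15 and 0.49 at TBX20, and TBX2 was fully covered in both. H3K27me3 coverage lower and EZH2 coverage higher in CPI-0209 were found together at 6 of 9 members (TBX1, TBX3, TBX4, TBX5, TBX21 and TBXT), against 47.1% of the 5237 protein-coding genes with both in DMSO.

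**Figure D2:**
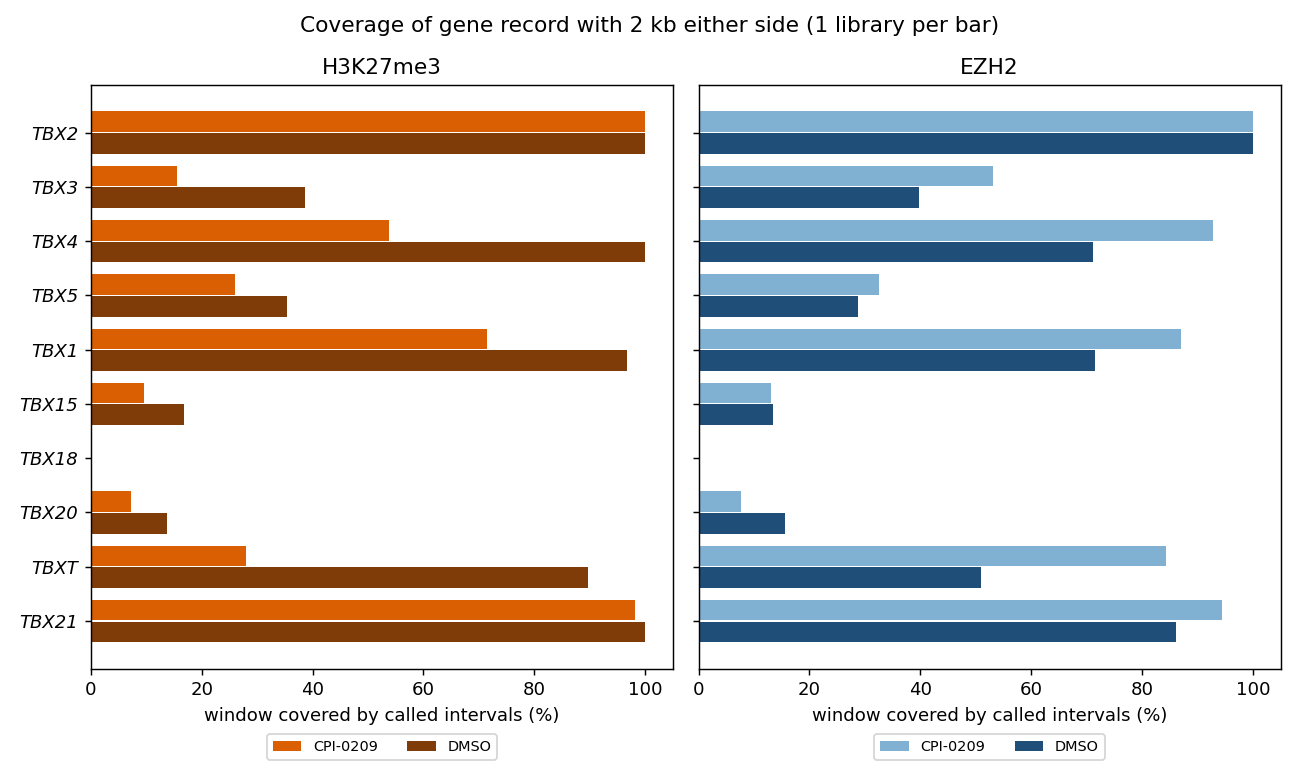
Percent of each gene window (record with 2 kb either side) covered by called intervals, for H3K27me3 on the left and EZH2 on the right, with CPI-0209 above DMSO for each gene; each bar is 1 library and there are no error bars. H3K27me3 coverage is lower in CPI-0209 at 8 genes and equal at TBX2, while EZH2 coverage is higher in CPI-0209 at 6.

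Domain width was read beyond the windows. The widest H3K27me3 domain touching the window was narrower in CPI-0209 at 9 of 9 members and wider at 0. It was narrower at 97.9% of the 4795 protein-coding genes with a domain in both and wider at 1.92%, so this count does not set the members apart. The ratio of widths ran from 0.14 at TBX4 and 0.17 at TBX3 to 0.81 at TBX21 and 0.84 at TBX1. Short gaps weigh on this measure. At TBX3 and at TBX20 a gap of 0.8 kb cut the CPI-0209 domain, which measured 5.20 kb and 4.00 kb by itself. With gaps under 5 kb joined, the width at TBX3 was 18.2 kb in CPI-0209 and 29.8 kb in DMSO, and at TBX20 14.0 kb in CPI-0209 and 22.2 kb in DMSO. At TBXT, where no gap was near, joining left 4.20 kb in CPI-0209 and 15.6 kb in DMSO. TBX4 measured 16.8 kb in CPI-0209 and 79.6 kb in DMSO when joined, and the 9 members with the mark were all narrower in CPI-0209 by this measure too. EZH2 domains were narrower in CPI-0209 at 3 members (59.6% over all genes) and wider at 6 (37.3%). The 3 were TBX3, TBX15 and TBX20, but at TBX3 the cut was a gap of 0.2 kb. With gaps joined its EZH2 domain measured 24.2 kb in CPI-0209 and 22.2 kb in DMSO, and TBX21 took its place among the narrower ones with 55.8 kb in CPI-0209 and 56.2 kb in DMSO.

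**Figure D3:**
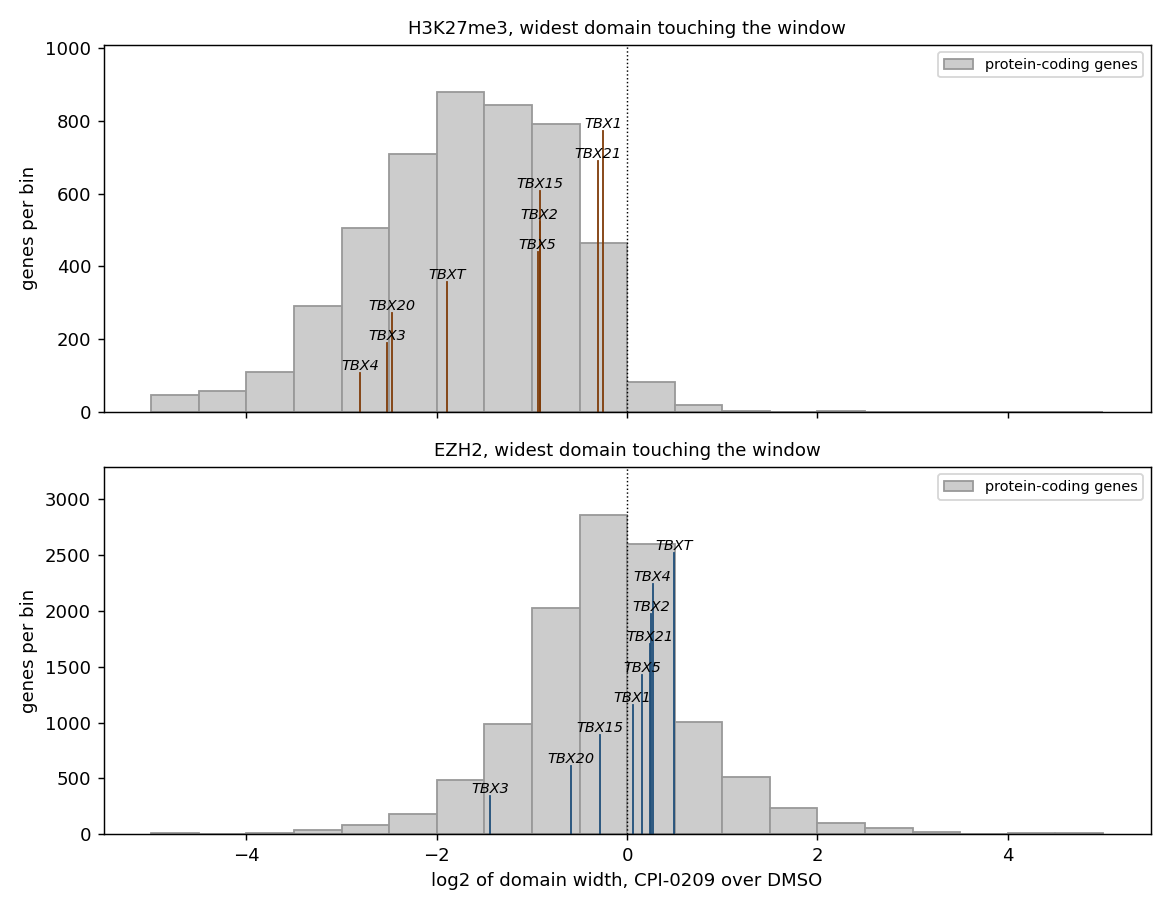
Log2 of the width of the widest domain touching a gene window, CPI-0209 over DMSO, for H3K27me3 (upper panel) and EZH2 (lower panel). Grey bars count protein-coding genes with a domain in both conditions in bins of the log2 ratio, the outermost bins also hold the genes beyond them, and vertical lines place the 9 T-box genes; the height of a line has no meaning. All 9 H3K27me3 lines lie left of 0, and 6 of 9 EZH2 lines lie right of it.

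Most of the H3K27me3 length called again in CPI-0209 lay where EZH2 was called in DMSO cells. Of the DMSO H3K27me3 length in the 10 windows, 130.4 kb lay under DMSO EZH2 and 33.9 kb outside it. CPI-0209 cells had H3K27me3 over 81.8% of the part under EZH2 and over 5.9% of the part outside. The same values summed over all protein-coding windows were 72.4% under EZH2 and 11.5% outside it, the same order as at the members. More of the DMSO mark lay under EZH2 at the members (79.4%) than over all windows (50.9%). At TBX1 the split was complete: all of the 22.1 kb under EZH2 was called again and none of the 7.80 kb outside it. TBX4, TBX5, TBX15 and TBXT likewise had none of their 10.6, 3.80, 3.60 and 5.80 kb outside EZH2 called again. The exception was TBX21, with 86.1% of its 2.32 kb outside EZH2 called in CPI-0209. At TBX2, TBX3 and TBX20 all of the DMSO mark in the window lay under EZH2, and 100%, 40.1% and 51.9% of it was called again.

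Most of the length without a renewed H3K27me3 call lay under EZH2 in CPI-0209 cells. At TBX1 all of this length lay outside EZH2 in DMSO cells. The 10 windows held 55.6 kb of DMSO H3K27me3 that was not called in CPI-0209, and CPI-0209 EZH2 covered 72.8% of it, against 34.5% over all protein-coding windows. This share was 100% at TBX3, 91.4% at TBXT and 89.4% at TBX4, where 17.0 kb was not called again, the most of the 10. It was 70.4% at TBX5, 61.5% at TBX1 and 47.5% at TBX15. At TBX20 it was 8.1%, and at TBX21 0.0% of only 0.32 kb. Of the H3K27me3 still called in CPI-0209 over the windows, 98.7% lay under CPI-0209 EZH2 (94.1% over all windows), and at 7 members all of it did.

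**Figure D4:**
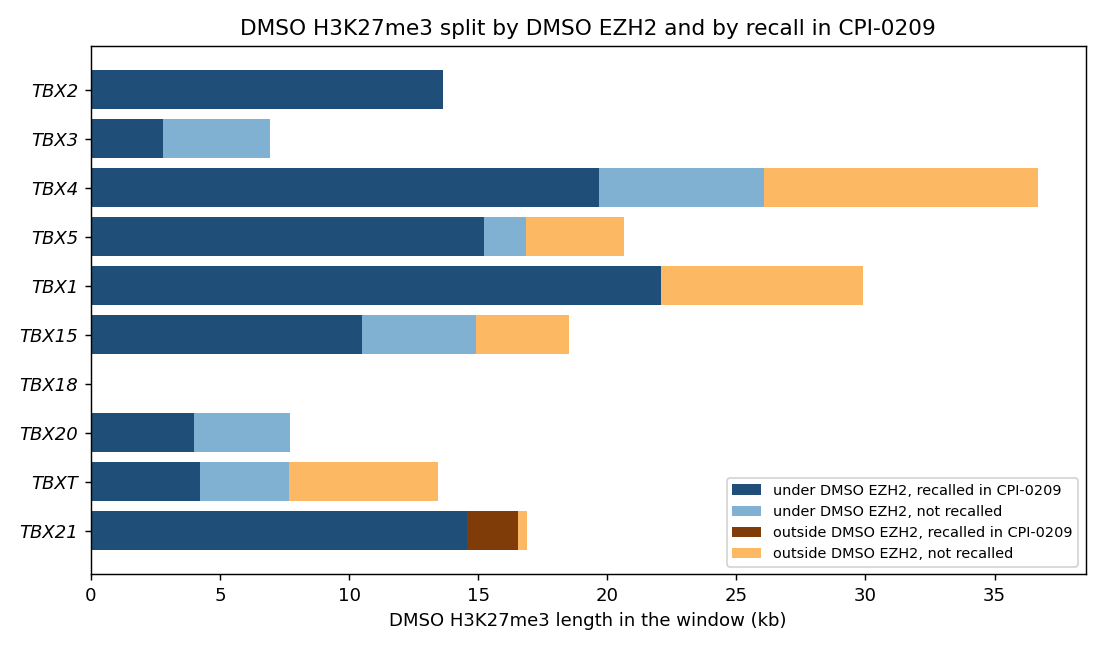
DMSO H3K27me3 length in each gene window in kb, split into length under DMSO EZH2 (blue) and outside it (brown and orange), and into length called again in CPI-0209 (dark) or not (light); each bar is 1 gene. None of the length outside EZH2 was called again at TBX1, TBX4, TBX5, TBX15 and TBXT, and most of it was at TBX21.

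Listed starts of transcription lay under H3K27me3 in both conditions at every member that had one, except TBX18. The RefSeq promoter table gives a start and strand for 7 of the members, 9 starts in all, and none for TBX2, TBX3 and TBX15. H3K27me3 lay within 2 kb of a start at 6 of the 7 in CPI-0209 (18.1% of all genes in the table) and at 6 in DMSO (25.4%). At 8 of these starts, on 6 genes, the start base lay under H3K27me3 in DMSO, and at all 8 it still did in CPI-0209, against 69.9% of the 4638 protein-coding starts so marked. The 6 DMSO domains that hold these starts were called again over 68.4% of their length, and the 3296 domains that hold any protein-coding start over 53.2%. At TBXT, the 4.20 kb left in CPI-0209 spanned the outermost start, from 1.3 kb upstream to 2.9 kb downstream, against 4.1 kb upstream and 11.5 kb downstream in DMSO. At TBX20 the piece over the start reached 1.9 kb upstream and 2.1 kb downstream in CPI-0209, against 16.5 kb upstream and 5.7 kb downstream in DMSO. Upstream of that piece, past a gap of 0.8 kb, lay a further CPI-0209 piece. The 1.9 kb is therefore not the upstream limit of the mark. With gaps under 5 kb joined, the domain measured 14.0 kb in CPI-0209 and 22.2 kb in DMSO. The 1 TBX4 start in the table (61456488) lies inside the record, which begins at 61452422, so part of the length upstream of it is within the record. The piece over this start reached 6.7 kb upstream and 1.7 kb downstream in CPI-0209, against 16.5 kb upstream and 42.3 kb downstream in DMSO. Downstream, past a gap of 1.2 kb, a further CPI-0209 piece of 7.20 kb followed. EZH2 also covered all 8 starts in both conditions, and 94% of the protein-coding starts under EZH2 in DMSO had it in CPI-0209 too.

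Promoter sequences are printed for TBX18, the member without any call, beside TBXT, TBX20 and TBX21, whose starts were marked in both conditions. They are the 250 bases before the outermost start, from RefSeq (GRCh38.p14), 5′ to 3′ on the strand of the gene, with each CG dinucleotide in capitals. They come from chr6:84764599-84764848 (minus strand) for TBX18, chr6:166168656-166168905 (minus) for TBXT, chr7:35254101-35254350 (minus) for TBX20 and chr17:47732986-47733235 (plus) for TBX21.
TBX18: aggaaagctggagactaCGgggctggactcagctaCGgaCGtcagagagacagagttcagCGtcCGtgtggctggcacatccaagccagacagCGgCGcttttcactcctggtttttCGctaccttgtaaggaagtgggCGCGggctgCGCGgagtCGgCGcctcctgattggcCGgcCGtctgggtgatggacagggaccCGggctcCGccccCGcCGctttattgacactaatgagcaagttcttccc
TBXT: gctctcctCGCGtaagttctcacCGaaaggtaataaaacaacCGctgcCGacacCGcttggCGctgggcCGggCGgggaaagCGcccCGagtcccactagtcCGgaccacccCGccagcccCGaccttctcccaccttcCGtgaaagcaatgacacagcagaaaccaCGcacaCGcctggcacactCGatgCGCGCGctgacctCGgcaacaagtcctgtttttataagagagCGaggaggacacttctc
TBX20: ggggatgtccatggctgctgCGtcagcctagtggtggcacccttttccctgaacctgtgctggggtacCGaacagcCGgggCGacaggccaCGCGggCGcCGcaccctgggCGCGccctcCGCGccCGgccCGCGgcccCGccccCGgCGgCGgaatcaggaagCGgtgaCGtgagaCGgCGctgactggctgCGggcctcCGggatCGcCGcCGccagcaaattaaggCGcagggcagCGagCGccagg
TBX21: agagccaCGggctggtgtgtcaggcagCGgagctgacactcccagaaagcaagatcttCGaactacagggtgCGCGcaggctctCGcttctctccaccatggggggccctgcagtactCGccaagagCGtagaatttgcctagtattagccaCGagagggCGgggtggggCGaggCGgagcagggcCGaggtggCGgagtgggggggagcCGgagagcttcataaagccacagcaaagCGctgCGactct
The CG dinucleotide, which reads the same on both strands, occurred 20 times before the TBX18 start, 23 times at TBXT, 31 times at TBX20 and 17 times at TBX21. Over the table's 300 bases, which add 50 bases after the start, all 9 starts of members had 10 or more CG, as did 70.1% of the 22132 protein-coding starts. TBX18 had 21 CG there, near the median of 22 for the members' starts and of 21 for all starts. Among all starts with 10 or more CG, 18.8% had H3K27me3 within 2 kb in CPI-0209 and 23.8% in DMSO. Among those with fewer, 13.4% had it in CPI-0209 and 25.9% in DMSO.

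TBX18 (chromosome 6, 84732496 to 84764598) encodes a factor of the epicardium and the sinus node. H3K27me3 and EZH2 covered 0% of its window in both conditions. The nearest H3K27me3 interval was 694.7 kb away in CPI-0209 and 668.1 kb in DMSO, and the nearest EZH2 interval 502.3 kb in CPI-0209 and 682.8 kb in DMSO. Windows free of all 4 lists were found at 19.1% of protein-coding genes, and 1.2% had no interval within 500 kb in any list. TBX18, at 502.3 kb, lay just beyond that limit, and no other limit was tried. The nearest protein-coding record was CEP162, 504.9 kb away on the lower-coordinate side, followed by MRAP2 at 586.2 kb on that side. On the higher-coordinate side the nearest was NT5E at 685.5 kb, followed by SNX14 at 740.9 kb. MRAP2 had 2.0% H3K27me3 coverage in CPI-0209 and 10.1% in DMSO, and CEP162, NT5E and SNX14 had none in either. Whether reads reach this region at the depth of the others was not tested, since the lists hold no read counts.

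Intervals of a list can overlap, 2 at most over any base, and the sources used here do not say what a list combines. Length under 2 intervals was therefore read separately. It made up 12.9% of the H3K27me3 length in CPI-0209 and 62.7% in DMSO over the genome, and 50.8% of the EZH2 length in CPI-0209 and 17.8% in DMSO. At the members, such coverage was lower in CPI-0209 for H3K27me3 at all 9 with the mark. Over the 6828 protein-coding genes with H3K27me3 in DMSO it was lower at 80.8%. Only 5543 of those genes had such a stretch in DMSO, and 5517 of these were lower. All 9 members had one, so this count does not set the members apart. For EZH2, coverage under 2 intervals was higher in CPI-0209 at 8 of 9, against 45.3% of protein-coding genes with EZH2 in DMSO. The exception was TBX20 with 5.2% in CPI-0209 and 12.8% in DMSO. The share of 45.3% is over all 11746 genes with EZH2 in DMSO, whether or not they had a stretch under 2 EZH2 intervals. Genes with such a stretch were not counted by themselves, so the EZH2 count is not read as a trait of the members. At TBX2, 0% of the window was under 2 H3K27me3 intervals in CPI-0209 and 100% in DMSO, while 100% was under 2 EZH2 intervals in CPI-0209 and 45.7% in DMSO. Among the members only TBX1 (24.0% in CPI-0209, 80.6% in DMSO), TBX4 (7.1% in CPI-0209, 82.6% in DMSO), TBX15 (6.7% in CPI-0209, 13.1% in DMSO) and TBX21 (32.0% in CPI-0209, 96.9% in DMSO) had such H3K27me3 stretches in CPI-0209. By this reading 17.4% of the DMSO H3K27me3 length at the members was called again, against 9.2% summed over all protein-coding windows. At or under 50% of DMSO coverage stood 8 of 9 members, against 95% of the 5543 protein-coding genes with such a stretch in DMSO. This count is therefore near that of all such genes.

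No DMSO H3K27me3 domain touched the windows of more than 1 member. Next to the members lie 33 other protein-coding genes, as the nearest records on either side or overlapping one. Of these 33, 9 had H3K27me3 over their windows in CPI-0209 (24.5% of all protein-coding genes) and 17 in DMSO (34.2%). DMSO H3K27me3 domains of members also reached 3 neighbours, namely BCAS3 beside TBX2, TBKBP1 beside TBX21 and GNB1L, which overlaps TBX1. TBKBP1 had 93.0% H3K27me3 coverage in CPI-0209 and 100% in DMSO. Non-coding records overlap several windows (TBX2-AS1, TBX3-AS1, TBX5-AS1, LNCDAT at TBXT), and a domain there cannot be assigned to 1 of the overlapping genes. NACA2, which lies 105.3 kb beyond TBX4, had 0% in CPI-0209 and 100% in DMSO, with EZH2 at 78.8% in CPI-0209 and 0% in DMSO. Some other neighbours outside the H3K27me3 domains of members were widely marked in both conditions. GP1BB and SEPTIN5, beside TBX1, had 100% H3K27me3 coverage in CPI-0209 and in DMSO. They are not separate from TBX1 by EZH2, since the EZH2 domain at TBX1 also spanned them in both conditions. Their DMSO H3K27me3 domain lay 0.8 kb from that of TBX1. With gaps under 5 kb joined, the TBX1 domain measured 122.2 kb in CPI-0209 and 130.2 kb in DMSO. LHX5, a neighbour of TBX5, had 82.9% in CPI-0209 and 100% in DMSO, and PRR18, beside TBXT, had 73.2% in CPI-0209 and 100% in DMSO. BRIP1, WARS2, HERPUD2 and DPY19L1, neighbours of TBX4, TBX15 and TBX20, had no H3K27me3 in either condition.

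The 7 remaining genes of the T-box family were counted in the same way. H3K27me3 lay over the window of 4 in CPI-0209 (24.5% of all protein-coding genes) and of 5 in DMSO (34.2%). EOMES, a factor of early mesoderm and of T and NK cells, had 79.6% coverage in CPI-0209 and 100% in DMSO. TBR1, a factor of cortical neurons, had 53.6% in CPI-0209 and 99.2% in DMSO, and TBX10 had 66.4% in CPI-0209 and 88.3% in DMSO. TBX19, a pituitary factor, had 0% in CPI-0209 and 13.1% in DMSO, without EZH2 in either. TBX6, of the presomitic mesoderm, was fully covered by EZH2 in both conditions with no H3K27me3 in either, and TBX22 had no call at all. MGA had 2.1% H3K27me3 coverage in CPI-0209 and 12.2% in DMSO. The median ratio of coverage over the 5 with H3K27me3 in DMSO was 0.54, against 0.33 over all protein-coding genes with the mark.

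Genes known to act with T-box factors in heart and limb were counted by any overlap with an interval. All 11 listed partners had H3K27me3 in CPI-0209 (24.5% of all genes) and in DMSO (34.2%), with coverage as low as 1.5% in CPI-0209 and 5.2% in DMSO, both at MEF2C. Coverage was lower in CPI-0209 at 8 (92.9% of all genes with the mark) and higher at 1 (2.37%), and the median ratio was 0.65, against 0.33 over all genes. The cardiac factors NKX2-5 and HAND1 had 100% coverage in both conditions, with domains of 27.8 and 17.0 kb in CPI-0209, against 122.6 and 30.2 kb in DMSO. GATA4 had 52.5% in CPI-0209 and 97.9% in DMSO. GATA6 was the one with higher coverage, 14.7% in CPI-0209 and 9.8% in DMSO. Of 16 genes reported as T-box targets, 7 had H3K27me3 in CPI-0209 and 10 in DMSO. The natriuretic peptide genes NPPA and NPPB shared a DMSO domain of 47.6 kb. In CPI-0209 NPPA had 0% coverage, against 52.4% in DMSO, and NPPB had 86.4%, against 100% in DMSO. FGF8 had 84.8% in CPI-0209 and 89.0% in DMSO, and FGF10 had 2.6% in CPI-0209 and 6.2% in DMSO. Besides NPPA, IFNG and MSGN1 had H3K27me3 in DMSO alone. Thus 3 of the 10 targets marked in DMSO had no call in CPI-0209, near the 29.8% over all protein-coding genes with the mark. CDKN1A, CDKN2A and CDH1, reported as repressed by TBX2 or TBX3, had no H3K27me3 in either condition.

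Of 8 epithelial and urothelial genes, 2 had H3K27me3 in CPI-0209 and in DMSO, where 24.5% of all genes had it in CPI-0209 and 34.2% in DMSO. The 2 were EPCAM (10.1% in CPI-0209 and 25.3% in DMSO) and GATA3 (10.8% in CPI-0209 and 19.7% in DMSO). Of 6 genes of other cell types, 3 had the mark in CPI-0209 and 4 in DMSO. COL1A1 had 74.5% in CPI-0209 and 100% in DMSO, and DES had 86.0% in CPI-0209 and 95.7% in DMSO. PECAM1 had 36.9% in CPI-0209 and 95.8% in DMSO, and CD3E had 0% in CPI-0209 and 50.3% in DMSO. The leukocyte gene PTPRC and the neuroendocrine gene SYP had none. Interval lists do not measure expression, and these counts do not check the cell type.

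By likeness of the 4 coverages to the median of the 10 members, the nearest genes outside the family were PHLDB1, KCNA7, ULBP2, DUSP26 and GJD2. Their summed absolute differences over the 4 libraries ran from 11.3 percentage points at PHLDB1 to 19.2 at GJD2. PHLDB1 had 18.7% H3K27me3 coverage in CPI-0209 and 65.8% in DMSO, and 69.1% EZH2 coverage in CPI-0209 and 46.3% in DMSO.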

How the data were processed

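HT1376 cells given CPI-0209 or DMSO were profiled by ChIP-seq for EZH2 and H3K27me3, with 1 library per group, and an input library was not analysed here. Treatment of 8 days is given per the labels, whose extract protocol also speaks of 4 days. The submitters' processing notes name BWA, SICER and hg38, with no settings. Whether the input was the control is not stated in these. Per the file headers, the authors deposited a chromosome, a start and an end for each interval. Starts and widths fall on a 200 bp grid, and coordinates are printed counting from 1.

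Overlapping or abutting intervals were merged into domains. Coverage is the percent of a gene record with 2 kb either side that lies under domains; length called again is the percent of DMSO length also covered in CPI-0209. Gene records and promoters came from RefSeq tables (GRCh38.p14), the assembly of hg38; exons and introns were not told apart. The interval arithmetic was tested on simulated data. Python 3.11.15, pandas 2.3.3, numpy 2.4.6 and matplotlib 3.10.9 were used. Members, gene lists and comparisons were chosen with earlier results of these data known. The genes named are all members and up to 4 marked genes of each list in list order. Also named are the 2 nearest protein-coding records on each side and the 5 genes nearest the members' median coverage. TBX6, TBX22, MGA, IFNG, MSGN1, PTPRC, SYP, MEF2C, CDKN1A, CDKN2A and CDH1 were named after their values were seen. Sums over all genes count overlapping windows more than once.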

Additional observations from a re-analysis of the deposited data

How the results depend on the processing

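The measures over the members, 10 values in all, were recomputed, not each under every setting, with stretches under 2 intervals, with the gene record alone or 10 kb either side, with gaps under 5 kb joined, without intervals under 2 kb, with the longer list of each target shortened to its widest intervals, with other thresholds and with 50% of the start window. Of the 54 recomputed values, 41 stayed within 1.5 times the reported one and 13 did not. With stretches under 2 intervals, the H3K27me3 length called again was 17.4% and 8 members stood at or under 50% of DMSO. H3K27me3 domains were narrower in CPI-0209 at 4 members (of 4 with such stretches in both lists), EZH2 domains at 0 (of 7), 2 members had the mark near a start in CPI-0209, and 33.6% of the DMSO H3K27me3 length lay under EZH2. With the gene record alone, 4 members stood at or under 50% of DMSO H3K27me3, and with 10 kb either side 0 did for EZH2, where TBX20 had done so with 2 kb. With the DMSO H3K27me3 list shortened, 0 members stood at or under 50% and 5 of 5 domains were narrower; TBX3, TBX5, TBX20 and TBXT had no DMSO call left, by the construction of that list. A threshold of 75% gave 7 members for H3K27me3, and one of 25% gave 0 for H3K27me3 and 0 for EZH2. For the others the cause was not tested. No paired analysis was possible because each group holds 1 library. The depth of the libraries is unknown, and a list from fewer reads can yield fewer and narrower calls.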
